A study of Mus musculus with 44 samples.

Results

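The transcripts described here belong to the liver's own antioxidant system: the transcription factor NRF2 (gene Nfe2l2) and its partners, NRF2 targets, and the enzymes of glutathione, thioredoxin, superoxide and peroxide metabolism. They were chosen as a list of 57 gene symbols sorted by role, and each gene was read from the Affymetrix probe set that carries its symbol alone, the one of highest mean where there were several. Of the 57 genes, 50 had such a probe set, out of 22180 genes in the data, and 48 passed the filter on low values, out of 10920. That filter kept a probe set whose mean linear value was above 4 in at least 1 group. The cystine transporter Slc7a11 and the exporter Abcc4 were below it in all 4 groups. Tkt, Prdx1, Gsta1 and Gsta2 had only probe sets shared with other genes, and G6pdx, Prdx5 and Prdx6 were not analysed here.

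NRF2 is held in the cytoplasm by KEAP1, which marks it for degradation. Oxidants and electrophiles modify KEAP1, NRF2 then enters the nucleus, pairs with a small MAF protein such as MAFF or MAFG and binds antioxidant response elements in front of genes for detoxifying enzymes. The liver is rich in these enzymes, because hepatocytes make glutathione for export and conjugate foreign compounds with it.

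Liver RNA came from 44 male C57BL/6N mice aged 11 to 12 weeks, each read on its own Affymetrix Mouse Gene 2.1 ST array. For 4 weeks the mice had eaten a purified control diet with vitamin E at 149 IU/kg and vitamin C at 0 mg/kg, or the same diet with vitamin E, as α-tocopheryl acetate, at 2000 IU/kg and vitamin C at 100 mg/kg. The exercised groups, 12 mice for each diet, ran uphill (14°) on a treadmill at 13 m/min over 60 min, and 10 mice per diet stayed sedentary in cages beside it with food withheld for 60 min. Exercised mice were sedated with ketamine and xylazine right after the run, and the livers were frozen. The vitamin E diet therefore differed from the control diet in vitamin C as well, the control diet already held vitamin E, and transcripts were read at a single time. The comparisons ask whether a dietary antioxidant or a run changes the liver's own antioxidant transcripts.

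Values are log2 expression, so that a difference of 1 is a 2-fold change, and array medians lay between 1.53 and 1.669. The 8 hepatocyte markers were high in every mouse, with means over the list between 10.742 and 11.012. The mean of 12 Kupffer cell and macrophage markers ran from 3.881 to 6.444, and only 2 of 6 neutrophil markers passed the filter. In bulk liver, fewer cells of a type and less RNA per cell cannot be told apart. Animal numbers in the labels fall into 2 series, beginning 24 (23 mice) and 27 (21 mice), each holding mice of all 4 groups. What the series stand for is not stated. Exercised control mice 3 and 6 stood apart from the other 10 of their group in Hmox1, at 7.891 and 7.418 against at most 6.027. Values without them are given beside some of the results they moved. The run differences of the transferases and of Txnip are given with all mice only.

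The start of each gene was searched for 3 short motifs, on both strands, in RefSeq sequence of the mouse build GRCm38.p6 from 250 bases before to 50 bases after the transcription start. The motifs were picked with the results in view. They were the antioxidant response element core TGACNNNGC, the form TGAGTCAGC that small MAF proteins bind with their partners, and the cyclic AMP response element TGACGTCA. Of the 57 genes, 49 were in the RefSeq table. The core was found for 14 of these 49 genes, against 14.0% of all 27025 genes, and in 12.4% of all 32851 windows. TGAGTCAGC was found for Srxn1, Osgin1 and Gstp1, against 0.481% of all genes and 0.414% of windows. TGACGTCA was found for Maff alone, against 2.03% of all genes and 1.79% of windows. Maff and Srxn1 are also among the 14 genes with the core. In Srxn1 it lies at positions 28 to 36, counted from the same start as TGAGTCAGC. In Maff it lies at -112 to -104 from a different start than the one used for TGACGTCA. The 2 Maff matches are in separate windows, chr15:79346371-79346670 for the core and chr15:79347270-79347569 for TGACGTCA. The stretches below were picked from the genes described later that had a match, and are read on the strand of the gene with the motif in capitals. Others described later, Nfe2l1, Nqo1, Gstm1, Cat and Ephx1, had none of these letters in their windows. Osgin1 lies at chr8:119437023-119437081 (plus strand), Maff at chr15:79347466-79347523 (plus), Srxn1 at chr2:152105467-152105499 (plus), Gclm at chr3:122245411-122245443 (plus), Mafg at chr11:120633749-120633781 (minus) and Sod1 at chr16:90220694-90220726 (plus).
Osgin1: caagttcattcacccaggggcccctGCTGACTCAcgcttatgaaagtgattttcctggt
Srxn1: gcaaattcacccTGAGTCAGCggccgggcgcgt
Maff: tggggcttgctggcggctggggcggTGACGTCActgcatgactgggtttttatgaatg
Gclm: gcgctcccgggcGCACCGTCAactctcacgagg
Mafg: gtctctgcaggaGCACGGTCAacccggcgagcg
Sod1: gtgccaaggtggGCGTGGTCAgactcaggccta
The capitals of Osgin1 are TGAGTCAGC read on the opposite strand, those of Srxn1 the same letters on the gene's own strand, and those of Gclm, Mafg and Sod1 the core on the opposite strand. Counted from the transcription start, with negative positions before it, the match spans -99 to -91 in Osgin1, -45 to -37 in Srxn1, -29 to -22 in Maff, -134 to -126 in Gclm, -222 to -214 in Mafg and -56 to -48 in Sod1. In Osgin1, Srxn1 and Gstp1 TGAGTCAGC did not overlap a match to the core. A match describes letters in the window and not a bound site.

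A run changed 2 of the 48 antioxidant transcripts on the control diet, in opposite directions. Osgin1, a stress-induced growth inhibitor, fell, and Maff, a small MAF partner of NRF2, rose. The classical NRF2 target enzymes and the enzymes that make and use glutathione did not pass the test. The share called among the antioxidant transcripts was 4.17%, where limma called 0.68% of all 18522 tested probe sets at an adjusted p under 0.05, 0.599% as higher and 0.081% as lower. Before adjustment 7 of the 48, or 14.6%, had a p under 0.05, against 9.39% of all probe sets. By the study's own criterion, a p below 0.05 with group medians more than 1.2-fold apart, Maff, Osgin1 and Txnip qualified, where 6.1% of all probe sets did. The median difference over the 48 was -0.004, and over all probe sets 0.016.

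Osgin1 ran from 4.367 through a median of 6.332 to 7.102 in sedentary control mice and from 4.444 through 5.087 to 5.953 in exercised control mice. On the vitamin E diet it ran from 5.09 through 6.126 to 6.793 in sedentary and from 4.542 through 4.842 to 5.555 in exercised mice. All 12 exercised mice of each diet lay below the sedentary median of that diet, and 9 of the 12 on vitamin E lay below the lowest sedentary mouse. The ranges overlapped on both diets, and on the control diet 1 sedentary mouse, mouse 3 at 4.367, lay below every exercised mouse. Osgin1 fell by 1.07 on the log2 scale with the run on the control diet (95% interval -1.52 to -0.61, adjusted p = 0.00972 in limma), to 0.478 of the sedentary level. On the vitamin E diet it fell by 1.16 (interval -1.62 to -0.70, adjusted p = 0.0062), to 0.447 of the sedentary level. The difference between these falls was -0.10 (interval -0.74 to 0.55, unadjusted p = 0.768). Diet itself went with differences of -0.05 in sedentary and -0.15 in exercised mice (unadjusted p = 0.832 and 0.504). In a fit of the control-diet groups alone the adjusted p of the fall was 0.0653, and within the number series the fall on that diet was 0.75 in series 24 and 1.55 in series 27, a difference that was not tested.

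Maff gave a low signal in sedentary mice. It ran from 0.802 through a median of 1.351 to 1.944 in sedentary control mice and from 1.469 through 2.33 to 3.345 in exercised control mice. With vitamin E the values were 0.94, 1.299 and 2.164 in sedentary mice and 1.216, 1.76 and 2.922 in exercised mice. Every exercised control mouse lay above the sedentary median and 8 of 12 above the highest sedentary mouse, whereas on vitamin E 11 of 12 and 3 of 12 did so, and the ranges overlapped on both diets. Maff rose by 0.96 on the control diet (interval 0.56 to 1.36, adjusted p = 0.00737 in limma). Since its sedentary signal was below the filter, no fold is given. On the vitamin E diet the difference was 0.44 (interval 0.04 to 0.84, unadjusted p = 0.0332, adjusted p = 0.747). The responses of the 2 diets differed by -0.52 (interval -1.09 to 0.05, unadjusted p = 0.0702, adjusted p = 0.901), so they were not shown to differ. Maff passed the filter through the exercised control group alone, with mean linear values of 2.57 in sedentary and 5.24 in exercised control mice, so that 1 of the 2 calls on the control diet is of a gene that was tested because it was high in that group. Without the filter its adjusted p on the control diet was 0.0151. Without exercised control mice 3 and 6 the difference was 0.95 (adjusted p = 0.0191), and for Osgin1 -1.14 (adjusted p = 0.0082).

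**Figure D1:**
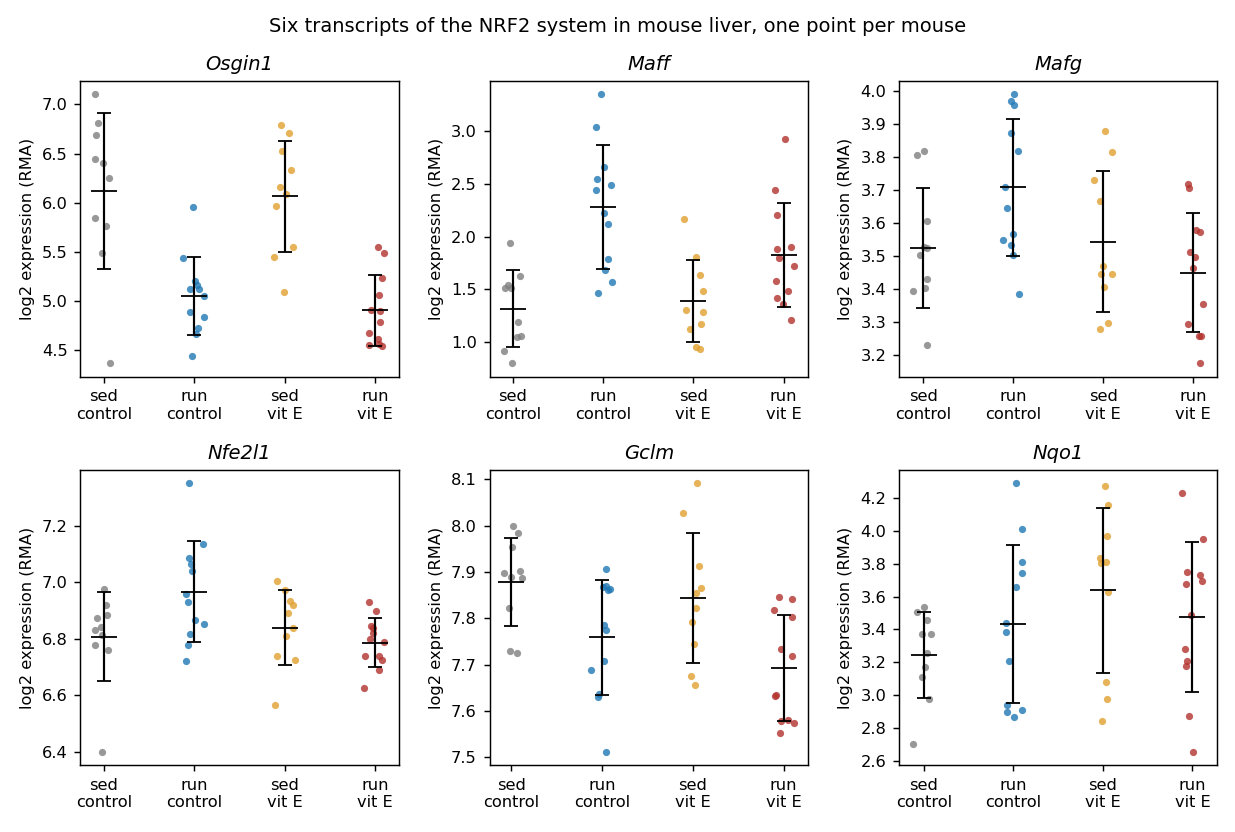
Log2 expression (RMA) of Osgin1, Maff, Mafg, Nfe2l1, Gclm and Nqo1 in each mouse of the 4 groups (n = 10 sedentary and 12 exercised per diet), where sed is sedentary, run is exercised, points are mice and bars are the mean ± SD, with a separate vertical scale per gene. Osgin1 is lower in exercised mice on both diets (medians 5.087 and 4.842 against 6.332 and 6.126), and Maff is higher (medians 2.33 and 1.76 against 1.351 and 1.299).

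On the vitamin E diet the run changed 1 of the 48, Osgin1, or 2.08%, against 0.232% of all probe sets in either direction and 0.0324% called lower. There were 3 at an unadjusted p under 0.05, namely Osgin1, Maff and Gclm, or 6.25% against 6.16%. By the study's criterion Osgin1 and Maff qualified, where 4.4% of all probe sets did. The median difference was -0.036, beside -0.019 for all probe sets. Averaged over both diets, 2 of 48 were called, again Osgin1 (-1.11, interval -1.44 to -0.79, adjusted p = 1.14e-05) and Maff (0.70, interval 0.42 to 0.99, adjusted p = 0.00261), where 1.19% of all probe sets were called. At an unadjusted p under 0.05 there were 7, or 14.6%, against 9.26%, and the study's criterion took Osgin1, Maff and Txnip and 4.4% of all probe sets. The average uses the same mice as the effects on each diet and is no separate evidence. Maff passed the filter through the exercised control group alone, so its averaged call carries that selection as well.

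Around the NRF2 switch itself, the differences with the run were small. Nfe2l2, which encodes NRF2, had medians of 8.012 in sedentary and 7.918 in exercised control mice and of 7.997 and 7.959 on vitamin E, with overlapping ranges. Its average difference with the run was -0.10 (interval -0.20 to 0.01, unadjusted p = 0.0674). Keap1, its repressor, was lower by a mean of 0.15 after the run (difference -0.15, interval -0.29 to -0.01, unadjusted p = 0.0403, adjusted p = 0.496). Nfe2l1, the related factor NRF1 that serves proteasome gene expression, had medians of 6.838 and 6.945 in sedentary and exercised control mice, and 5 of the 12 exercised mice lay above the highest sedentary one. The difference was 0.16 (interval 0.03 to 0.29, unadjusted p = 0.0201, adjusted p = 0.397), and 0.10 without exercised control mice 3 and 6 (unadjusted p = 0.103). Mafg, another small MAF, had medians of 3.513 and 3.676 in the same groups, with 4 of 12 exercised mice above the sedentary range. Its difference was 0.18 (interval 0.01 to 0.36, unadjusted p = 0.0398, adjusted p = 0.507). Neither Mafg nor Nfe2l1 was higher after the run with vitamin E, where the differences were -0.09 and -0.05.

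Of the 6 inducible targets, Osgin1 alone passed the test after a run. Nqo1, a quinone reductase that is among the best known NRF2 targets, differed by 0.18 on the control diet (interval -0.19 to 0.56) and by -0.16 with vitamin E (interval -0.53 to 0.21). Srxn1, which repairs overoxidised peroxiredoxins, differed by 0.13 (interval -0.15 to 0.40) and -0.11 (interval -0.38 to 0.16), the latter being 0.08 without the 3 vitamin E mice of high macrophage markers described below. Blvrb, a biliverdin reductase, and Ephx1, the microsomal epoxide hydrolase, had average differences of -0.05 and -0.08, that of Ephx1 being 0.00 without exercised control mice 3 and 6. For the 6 targets the lowest and highest bounds of the averaged intervals were -1.44 and 0.58, and without Osgin1 no averaged difference of a target exceeded 0.16.

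Hmox1, heme oxygenase, varied more between mice than any other of the 48 except Txnip, with a pooled SD of 0.703. It ran from 4.052 through 5.685 to 6.645 in sedentary and from 5.116 through 5.919 to 7.891 in exercised control mice, and from 4.974 through 5.845 to 7.209 and from 5.131 through 5.63 to 6.852 in the sedentary and exercised vitamin E groups. The 4 ranges overlapped, and the 2 highest exercised control mice were mouse 3 at 7.891 and mouse 6 at 7.418, while the other 10 lay between 5.116 and 6.027. The difference with the run was 0.53 on the control diet (interval -0.07 to 1.12, unadjusted p = 0.0798) and -0.21 with vitamin E (interval -0.80 to 0.38). Without mice 3 and 6 the difference on the control diet was 0.20 (interval -0.32 to 0.72, unadjusted p = 0.443), and the average over both diets went from 0.16 to near 0. Across the 44 mice, after group means were removed, Hmox1 went with the mean of the 12 macrophage markers (Pearson's r = 0.792, Spearman's rho = 0.774, permutation p = 1e-05 for each, the smallest that 100000 permutations can give). Adjusted over the 5 pairs tested p was 5e-05, r was 0.75 without the 2 mice farthest from the median of the markers, and it was 0.812 within series 24 and 0.74 within series 27. The 3 sedentary control mice of lowest Hmox1, at 4.052, 4.605 and 4.649, also had the 3 lowest marker means of their group, at 4.041, 4.058 and 3.881. Macrophages of liver and spleen break down heme from red cells, and Hmox1 is one of their abundant transcripts. All 12 markers were higher after the run on the control diet (median difference 0.33) and all 12 were lower with the run on vitamin E (median -0.232), none of them called. Without mice 3 and 6, 9 of 12 markers were higher after the run on this diet (median 0.099). Without sedentary supplemented mice 1 and 3 and exercised supplemented mouse 2, which had the highest marker means on vitamin E, the differences with the run on vitamin E were -0.05 for Hmox1 and a median of -0.082 for the markers. The part of macrophage RNA in the Hmox1 values was not tested.

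**Figure D2:**
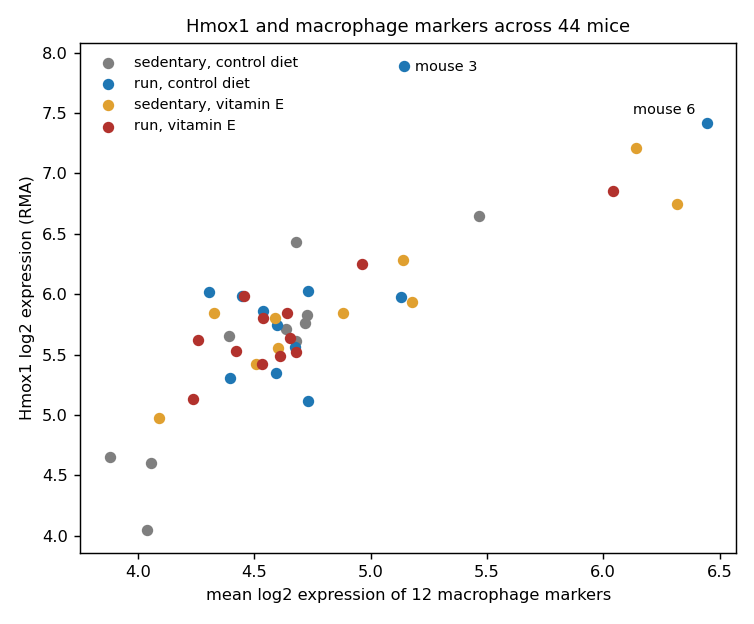
Hmox1 log2 expression against the mean log2 expression of 12 Kupffer cell and macrophage markers, 1 point per mouse, coloured by group (n = 44). The points rise together (r = 0.792 after removal of group means), and exercised control mice 3 and 6 hold the highest Hmox1 values, 7.891 and 7.418.

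Genes of glutathione supply had small differences with the run, and a decrease of the group as a whole was not tested. All 5 tested members, Gclc and Gclm (the catalytic and modifier subunits of glutamate-cysteine ligase, the first step of synthesis), Gss (glutathione synthetase), Gsr (the reductase that regenerates glutathione) and Glrx (glutaredoxin), had differences below 0 on both diets, and none was called. Without exercised control mice 3 and 6 that of Glrx was 0.11 on the control diet and 0.01 on average. Their median averaged difference was -0.091, and 48.9% of all probe sets had a difference above 0 in that comparison. Gclm ran from 7.725 through 7.893 to 8.0 in sedentary and from 7.511 through 7.78 to 7.907 in exercised control mice, and from 7.655 through 7.838 to 8.092 and from 7.552 through 7.677 to 7.847 with vitamin E. On the control diet 11 of 12 exercised mice lay below the sedentary median and 5 below the lowest sedentary mouse, and with vitamin E the counts were 10 and 6. Gclm differed by -0.12 on the control diet, by -0.15 with vitamin E and by -0.14 on average (interval -0.22 to -0.05, unadjusted p = 0.0016, adjusted p = 0.0978 in limma), and the ranges overlapped. The averaged adjusted p was 0.0437 under a stricter filter and 0.0439 with the replicate number as a block, and 0.323 without the 3 vitamin E mice of high macrophage markers, so its call turned on the fit. Gss differed by -0.12 on average (unadjusted p = 0.0398, adjusted p = 0.495). Between mice, Gclc and Gclm were weakly related (r = 0.285, permutation p = 0.0777, adjusted p = 0.162; rho = 0.345, p = 0.0258, adjusted p = 0.0645; 0.374 without the 2 farthest mice). For Nqo1 with Srxn1 r was 0.276 (adjusted permutation p = 0.162), but 0.429 within series 24 and -0.123 within series 27. For Nqo1 with Gclm it was 0.122 (adjusted p = 0.583), with 0.416 and -0.149 in the series, and for Osgin1 with Srxn1 -0.051 (adjusted p = 0.722). For Gclc with Gclm the series gave 0.35 and 0.271.

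The thioredoxin system reduces protein disulfides with electrons from NADPH, and Txnip, a glucose-responsive inhibitor of thioredoxin, was the most variable of all 48 transcripts, with a pooled SD of 0.804. Txnip ran from 7.037 through 7.954 to 8.715 in sedentary and from 6.948 through 8.742 to 9.876 in exercised control mice, and from 7.222 through 7.862 to 8.305 and from 6.22 through 8.48 to 9.823 with vitamin E. With vitamin E the exercised range reached both above and below the sedentary range. On the control diet mouse 3, at 6.948, was the only exercised mouse below the sedentary range. Mouse 6 was at 8.98, and the other 10 ran from 7.304 to 9.876. The difference was 0.74 on the control diet (interval 0.04 to 1.44, unadjusted p = 0.0393, adjusted p = 0.507) and 0.35 with vitamin E (interval -0.35 to 1.05). Txnrd2, the mitochondrial thioredoxin reductase, differed by -0.16 on average (interval -0.30 to -0.03, unadjusted p = 0.0213, adjusted p = 0.391). Txn1, Txn2 and Txnrd1, the thioredoxins and the cytosolic reductase, had averaged differences between -0.04 and 0.04.

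Most enzymes that remove superoxide and peroxide showed narrow intervals around 0 after the run. Sod1, the cytosolic superoxide dismutase, had the smallest spread of all, a pooled SD of 0.076. It ran from 10.844 through 10.931 to 11.076 in sedentary control mice, from 10.932 through 11.028 to 11.281 in exercised control mice, from 10.935 through 10.99 to 11.121 in sedentary and from 10.905 through 10.969 to 11.138 in exercised mice on vitamin E. All 12 exercised control mice lay above the sedentary median of their diet and 4 above its highest mouse. The difference was 0.12 on the control diet (interval 0.03 to 0.20, unadjusted p = 0.0102, adjusted p = 0.32 in limma) and -0.02 with vitamin E (interval -0.10 to 0.07). Sod2, the mitochondrial form, and catalase (Cat), which splits hydrogen peroxide in peroxisomes, had averaged differences of 0.08 and 0.02. Without exercised control mice 3 and 6 these were 0.04 for Sod2 and 0.06 for Cat. On the control diet the Cat difference was 0.05 with all mice (unadjusted p = 0.419 in limma). It was 0.11 without those 2 mice (unadjusted p = 0.05003, adjusted p = 0.548). Gpx1, the main cytosolic glutathione peroxidase, had a median of 11.448 in sedentary and 11.413 in exercised control mice and an averaged difference between -0.07 and 0.06 at 95%, and Gpx7, a peroxidase of the endoplasmic reticulum, differed by 0.20 on the control diet (interval -0.04 to 0.45, unadjusted p = 0.106). The peroxiredoxins Prdx2, Prdx3 and Prdx4 had averaged intervals that stayed between -0.16 and 0.14.

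Glutathione transferases, which couple glutathione to electrophiles, and the canalicular and sinusoidal exporters of the conjugates were not called in any comparison with the run. For the 12 transferases tested the averaged intervals reached from -0.38 to 0.29, that is from 0.771-fold to 1.22-fold. Gstp1, a pi-class transferase, had medians of 12.352 and 12.277 on the control diet and 12.245 and 12.346 on vitamin E. Gstk1, the mitochondrial and peroxisomal transferase, differed by 0.11 and -0.03 on the respective diets. Abcc2 and Abcc3, which export glutathione and glucuronide conjugates, had averaged differences of 0.01 and -0.02, the latter 0.07 without exercised control mice 3 and 6. Of the suppliers of NADPH, Pgd differed by 0.12 and Taldo1 by 0.02 on average. Sequences of Gstm and Gsta family members are alike, so their probe sets may share signal and their values are uncertain as to the family member. Over all 48 genes the averaged 95% interval lay within ±0.25, a change of at most 1.19-fold, for 31 genes and within ±0.5, or 1.41-fold, for 44. On the single diets 42 (control) and 40 (vitamin E) intervals lay within ±0.5.

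**Figure D3:**
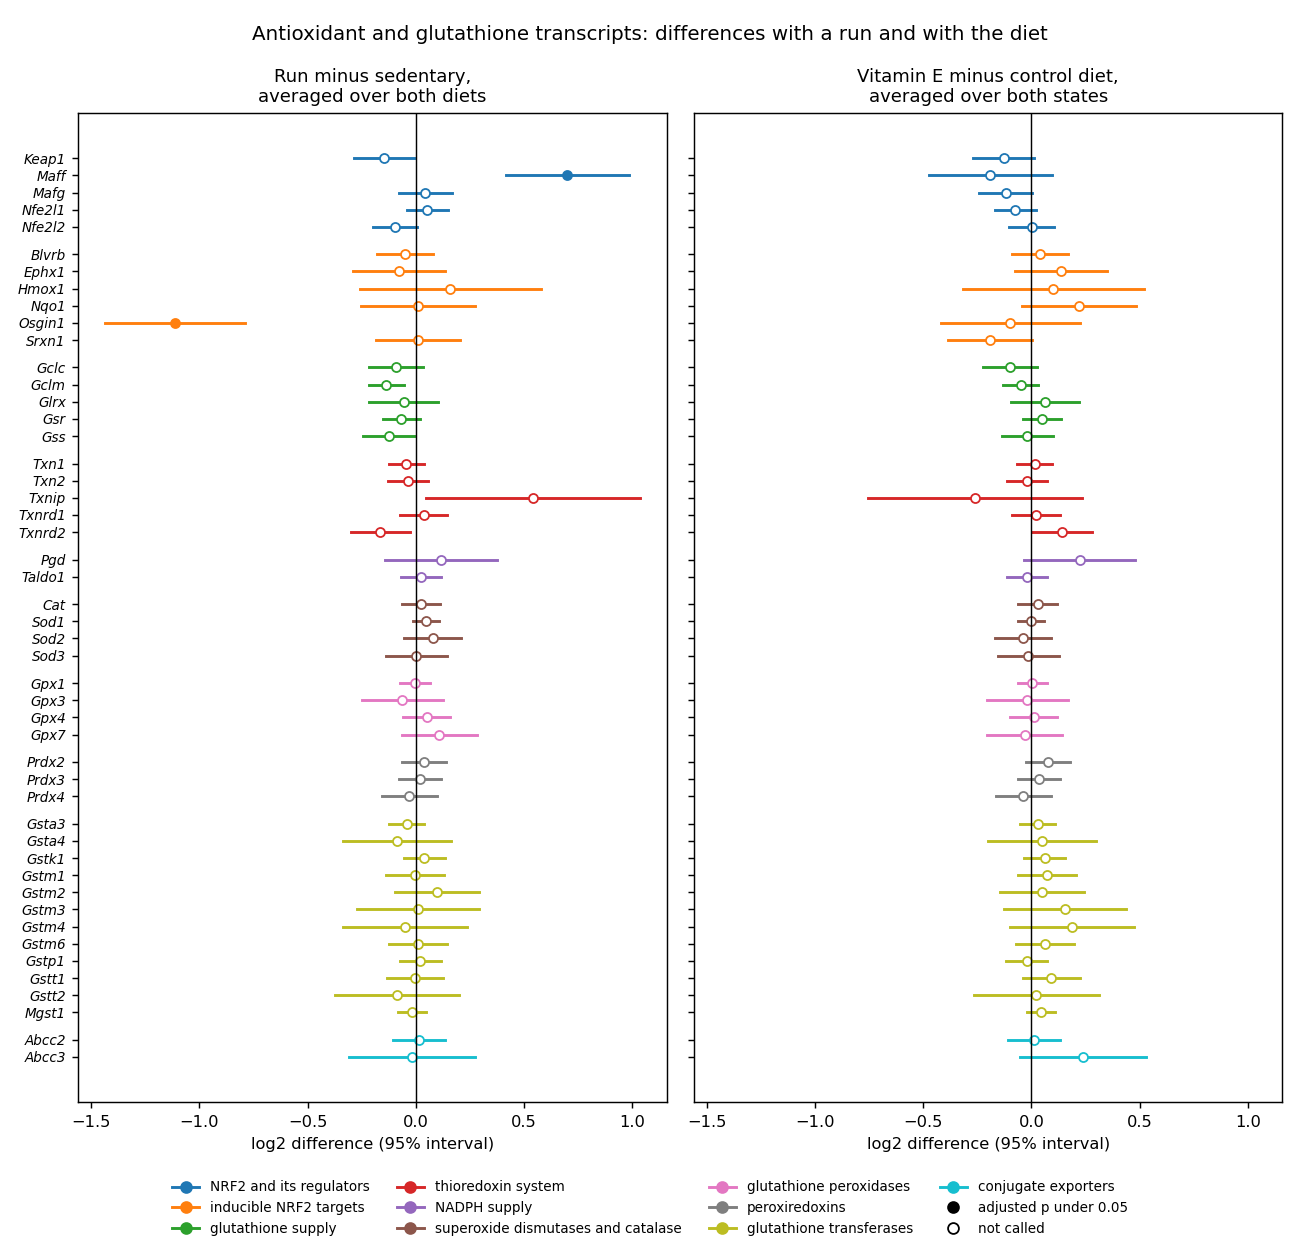
Differences in log2 expression of the 48 tested transcripts with their 95% intervals, grouped and coloured by role, for the run (exercised minus sedentary, averaged over both diets) and for the diet (vitamin E minus control, averaged over sedentary and exercised mice). Filled points passed an adjusted p under 0.05: Osgin1 (-1.11) and Maff (0.70) with the run and none with the diet.

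Vitamin E changed none of the 48 antioxidant transcripts in limma (adjusted p under 0.05), be it in sedentary mice, in exercised mice or on average. The same held for the whole array, where 0.0% of the 18522 probe sets were called in each of these comparisons. At an unadjusted p under 0.05 there were 1, 4 and 1 of 48 (2.08%, 8.33% and 2.08%), beside 4.77%, 5.6% and 4.69% of all probe sets. The study's criterion took Nqo1 in sedentary mice (3.61% of all probe sets), Srxn1 and Maff in exercised mice (3.26%) and none on average (2.27%). In exercised mice that was 604 of the 18522 probe sets. The paper reports fewer transcripts for the same comparison, so its selection was not reproduced exactly here. On average over both states 33 intervals lay within ±0.25 and 45 within ±0.5. For 11 of the 12 transferases the average difference was above 0, at most 0.19 (Gstm4, interval -0.10 to 0.47), none was called, and 51.0% of all probe sets were above 0. Without exercised control mice 3 and 6, Gsta4 and Gstt2 were below 0 as well, at -0.04 and -0.08. Pgd, an NADPH-forming dehydrogenase of the pentose phosphate pathway, differed by 0.22 (interval -0.04 to 0.48, unadjusted p = 0.0899), and Keap1 by -0.13 (interval -0.27 to 0.01, unadjusted p = 0.0695). The transferases had intervals from -0.27 to 0.47, the glutathione peroxidases from -0.21 to 0.17, the superoxide dismutases and catalase from -0.17 to 0.13 and the glutathione supply genes from -0.22 to 0.22.

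In sedentary mice, 35 of the 48 transcripts were higher with vitamin E, where 56.0% of all probe sets were. Nqo1 ran from 2.705 through 3.314 to 3.535 in control mice and from 2.844 through 3.808 to 4.275 in vitamin E-supplemented mice. In the supplemented group 7 of 10 mice lay above the highest control mouse and the other 3 within the control range. The difference was 0.39 (interval 0.00 to 0.78, unadjusted p = 0.0488, adjusted p = 1.0 in limma), and in exercised mice it was 0.05 (interval -0.31 to 0.40). The next by p were Gstk1 at 0.13 (medians 9.212 and 9.33, unadjusted p = 0.0657) and Abcc3 at 0.40 (medians 7.191 and 7.534, unadjusted p = 0.0682). Hmox1 differed by 0.47 (interval -0.15 to 1.08), and beside it all 12 macrophage markers were higher in this comparison (median 0.449), with marker means up to 6.315 and 6.141 in vitamin E mice 1 and 3. Without those 2 mice the Hmox1 difference was 0.21 (interval -0.39 to 0.82), 10 of 12 markers were higher with a median of 0.125, and the Nqo1 difference was 0.31 (unadjusted p = 0.138).

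In exercised mice, the differences with vitamin E that came nearest to the threshold were in the regulators. All 5 were lower with vitamin E, with a median of -0.181, where 45.1% of all probe sets were higher and the median was -0.015. Among the 5, Maff passed the filter through the exercised control group alone (mean linear value 5.24, against 3.76 in exercised supplemented mice). A lower Maff value with vitamin E was thus favoured by its selection, whereas the others passed in all 4 groups. Mafg ran from 3.384 through 3.676 to 3.988 in exercised control mice and from 3.176 through 3.481 to 3.719 in exercised supplemented mice, and 10 of 12 supplemented mice lay below the control median, 5 of them below the lowest control mouse. The difference was -0.26 (interval -0.42 to -0.09, unadjusted p = 0.00311, adjusted p = 0.748). Nfe2l1 ran from 6.72 through 6.945 to 7.352 and from 6.625 through 6.793 to 6.932 in the same groups, so that all 12 supplemented mice lay below the control median. The difference was -0.18 (interval -0.31 to -0.05, unadjusted p = 0.00624, adjusted p = 0.801). Exercised control mice 3 and 6 had the 2 highest Nfe2l1 values of their group, 7.138 and 7.352, and lay below their group's median for Mafg, at 3.566 and 3.532. Without both, the differences were -0.13 for Nfe2l1 and -0.29 for Mafg (adjusted p = 1.0 and 0.903). Maff differed by -0.45 (interval -0.84 to -0.07, unadjusted p = 0.0219, adjusted p = 0.863) and Srxn1 by -0.31 (interval -0.57 to -0.05, unadjusted p = 0.0206, adjusted p = 0.863), with Srxn1 medians of 4.51 and 4.224 and 11 of 12 supplemented mice below the control median. Averaged over both states the smallest p was that of Txnrd2, at 0.14 (interval 0.00 to 0.28, unadjusted p = 0.0461, adjusted p = 0.999), ahead of Srxn1 at -0.19 and Mafg at -0.12.

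The interaction of diet and run, which asks whether the response to the run differed between the diets, was called by limma for 0 of the 48 and for 0.0% of all probe sets. Unadjusted, 3 had a p under 0.05, or 6.25%, beside 5.49% of all, and the study's criterion took 0 of the 48 and 4.48% of all. These were Nfe2l1 (-0.21, interval -0.40 to -0.02, p = 0.0275), Mafg (-0.28, interval -0.52 to -0.03, p = 0.028) and Sod1 (-0.13, interval -0.26 to -0.01, p = 0.0329), each with an adjusted p of 0.9. Without exercised control mice 3 and 6 that of Nfe2l1 was -0.16 (unadjusted p = 0.0753). In all 3 the exercised control group had the highest median of the 4 groups. All 6 inducible targets had a negative interaction, from -0.731 to -0.006 with a median of -0.166, and 42.5% of all probe sets a positive one. None of the 6 was called. Of the 48 interactions, 33 changed sign under at least 1 alternative way of processing, the one at -0.731 among them, so the shared sign depends on the processing. The comparisons within diets and within states reuse the same 4 groups, so a high exercised control group enters the run effect, the diet effect and the interaction alike.

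The pathway beyond the 48 was read from a list of 49 further genes, of which 36 were tested. It held NRF2-linked enzymes such as Me1, Akr1b8, Aox1 and Ugdh, the NRF2 competitor Bach1, ferritin and further thiol enzymes. None of the 36 was called in any of the 7 comparisons of run, diet and their interaction, and at an unadjusted p under 0.05 between 1 and 3 were, depending on the comparison. That is 2.78% to 8.33% of them, beside 4.69% to 9.39% of all probe sets. The smallest p was that of Akr1b8, an aldo-keto reductase, which was higher by 0.51 with vitamin E in sedentary mice (unadjusted p = 0.000682, adjusted p = 0.803). Akr1b8 also differed by -0.45 with the run on vitamin E (unadjusted p = 0.00142, adjusted p = 0.223) and by -0.07 with vitamin E in exercised mice. Its mean signal was low, at 1.65, and was highest in sedentary supplemented mice. Akr1b8 may therefore have passed the filter through that group alone, on which the differences of 0.51 and -0.45 both rest. With the run on the control diet, Glrx3, a monothiol glutaredoxin, differed by -0.32 (unadjusted p = 0.00106, adjusted p = 0.106), and Chac1, a stress-induced enzyme that degrades glutathione, by 0.50 (unadjusted p = 0.0175, adjusted p = 0.377). The median difference of the 36 was -0.034 with the run on the control diet and 0.051 with vitamin E in exercised mice.

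More of the antioxidant transcripts differed between the number series of the animals than with diet or run. With the group as a covariate, 4 of 48 (8.33%) were called, all higher in series 27, where 1.8% of all probe sets were called, 1.14% as higher and 0.664% as lower. At an unadjusted p under 0.05 there were 17, or 35.4%, against 14.5%. Abcc3 ran from 5.528 through 7.105 to 8.058 in series 24 and from 7.228 through 7.674 to 8.184 in series 27, Gstm1 from 5.817 through 6.334 to 6.599 and from 6.321 through 6.533 to 6.937. Cat ran from 10.942 through 11.281 to 11.436 and from 11.288 through 11.435 to 11.535, and Ephx1 from 6.448 through 7.754 to 8.065 and from 7.637 through 8.134 to 8.44. Over all groups the series overlapped for each of the 4 genes. The differences were 0.59 for Abcc3 (interval 0.36 to 0.82, adjusted p = 0.00332), 0.26 for Gstm1 (adjusted p = 0.00681), 0.17 for Cat (adjusted p = 0.00967) and 0.37 for Ephx1 (interval 0.19 to 0.55, adjusted p = 0.0245, and 0.0544 without the filter on low values). Further transferases came close, with Gstk1 at 0.15 (adjusted p = 0.0526), Gstt2 at 0.44 (adjusted p = 0.0607) and Gstm4 at 0.43 (adjusted p = 0.0626), whereas Prdx4, the peroxiredoxin of the endoplasmic reticulum, was lower in series 27, at -0.19 (adjusted p = 0.0626). Within each group the sign was the same for all 4 genes. They were picked for this difference in these same mice, so the shared sign is no separate evidence. Cat differed by 0.186 in sedentary and 0.204 in exercised control mice and by 0.208 and 0.081 with vitamin E. In sedentary supplemented mice the series did not overlap for Cat (11.101 to 11.375 in 5 mice of series 24, 11.438 to 11.475 in 5 of series 27). The same held for Gstm1 in sedentary control mice and for Abcc3 in exercised supplemented mice. In all other groups the series overlapped for these genes and for Ephx1. How many of all probe sets separate the series within a group was not counted. Without exercised control mice 3 and 6, which both belong to series 24, 5 were called. The share of all probe sets called in that fit is not given, so this count cannot be set against the 1.8%. Of the 36 further genes, 3 were called and higher in series 27, namely Ugdh (0.28), Aox1 (0.50) and Aldh1a1 (0.20), all enzymes of hepatic detoxification. Each group holds mice of both series, in numbers of 4 to 6.

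**Figure D4:**
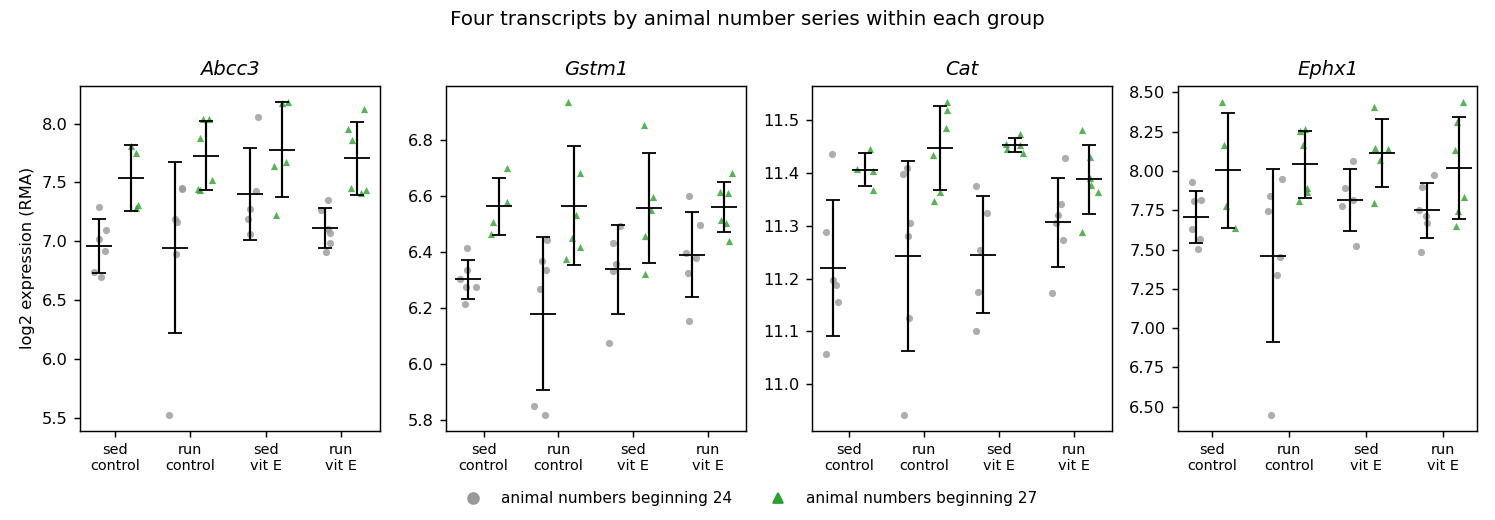
Log2 expression of Abcc3, Gstm1, Cat and Ephx1 in each mouse by group and by animal number series, where grey circles are mice of series 24 and green triangles mice of series 27, bars are the mean ± SD (n = 4 to 6 per series and group), and each gene has its own vertical scale. In all 4 groups the mean of series 27 lies above that of series 24, for Cat by 0.081 to 0.208. The genes shown were picked for this difference in the same mice.

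The extremes of the 12 exercised control mice were spread unevenly over the transcripts. Mouse 3 had the lowest value for 17 of the 48 transcripts, among them 8 transferases, and the highest for 4, Hmox1, Osgin1, Sod2 and Txnrd1. Abcc3 was 5.528 in mouse 3, while the 10 mice other than 3 and 6 lay between 6.892 and 8.042, and Ephx1 was 6.448 against 7.338 to 8.269. Sod2, the mitochondrial dismutase that inflammatory signals induce, was 9.831 in mouse 3 against 8.583 to 8.853. Mouse 6 had the lowest value for 8 transcripts and the highest for 2, Gstk1 and Nfe2l1. Mouse 10 had the highest value for 13 and the lowest for 2, so by this count mouse 6 did not stand apart. The macrophage marker mean was 5.145 in mouse 3 and 6.444 in mouse 6. The number of transcripts called on the control diet, 2, was the same without both mice.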

How the data were processed

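Livers of 44 mice were profiled on Affymetrix Mouse Gene 2.1 ST arrays. The authors normalized the arrays by RMA (Affymetrix Expression Console) and deposited log2 expression values, which were used unaltered. Of 41345 probe sets, 23521 carried 1 gene symbol in the array annotation, 1820 several and 16004 none. The paper's filter, a mean linear value above 4 in at least 1 group, left 18522. One limma model (version 3.58.1, R 4.3.3) held all 4 groups, with moderated two-sided tests, p-values adjusted by the Benjamini-Hochberg method over all kept probe sets, and calls at an adjusted p under 0.05. Pairs of transcripts were compared over mice by 100000 two-sided permutations within groups. The procedure was tested on simulated data. The named transcripts are those called in a comparison, the 3 of smallest p in each of 7 comparisons, and examples of each role. Members, lists, markers and motifs were chosen with earlier results of these data known. RefSeq promoters of GRCm38.p6 were matched by symbol. Alternatives were other filters, normalizations, fits and blocks, each number series alone, probe sets of 1 symbol, the mean of a gene's probe sets, the threshold of the paper's methods (p below 0.05 and group medians more than 1.2-fold apart), and single mice left out. The omission of 3 vitamin E mice with high macrophage markers, and the omissions over all members, were chosen after seeing the data. Figures were drawn with Python 3.11.15 and matplotlib 3.10.9.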

Additional observations from a re-analysis of the deposited data

Results flagged for a closer look

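Nfe2l1 was 6.399 in sedentary control mouse 3, the lowest of its 10, and the nearest other mouse was at 6.76. The gap was 0.626 of the group's whole range. The same mouse had the lowest Osgin1 of its group, 4.367. This was 1 of 28 sets of 10 mice examined in this way, and chance flags about 1 in 20.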

How the results depend on the processing

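With the run on the control diet the 2 called transcripts became 1 when only the compared groups were fitted (Osgin1 lost), 1 under the stricter filter (group mean log2 above 5, which removed Maff), 0 in series 24 alone and 1 in series 27 alone, and 3 at the threshold of the paper's methods (Txnip added). With the run on vitamin E the 1 call became 0 in either series alone and 2 at the threshold of the paper's methods. On average over the diets the 2 calls became 0 in series 24, 1 in series 27, 3 with the replicate block (Gclm added) and 3 at the methods' threshold (Txnip added), and under the stricter filter they were Osgin1 and Gclm. With vitamin E the methods' threshold gave 1 (Nqo1, sedentary) and 2 (Srxn1 and Maff, exercised) in place of 0. Series alone hold fewer mice. The relation of Gclc and Gclm was stronger without removal of group means (r = 0.3853) and without exercised control mice 3 and 6 (r = 0.4071). Under the alternatives, 331 values of the transcripts with the smallest p kept their side of the threshold, 10 lost their call and 2, both of Gclm, gained one. None of these values reversed direction. Most of the 331 belong to differences that were not called to begin with, so that count says little about the calls. On the control diet Osgin1 kept its call in 14 of 16 alternatives and Maff in 13 of 15. Over all 48 transcripts, between 20 and 33 per comparison changed sign in at least 1 setting, none of them called before or after. Replicate numbers paired the mice of different groups at most weakly. The median correlation was 0.028 over 62 same-number pairs, none above 0.1. Over 662 pairs of other numbers it was -0.004, with 9 above 0.1. With replicate numbers as a block, Osgin1 (-1.11, adjusted p = 0.00897) and Maff (0.93, adjusted p = 0.0275) remained called on the control diet. The number of arrays limits precision, with a median 95% margin of ±0.131 for averaged differences.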
